A study of Mus musculus with 36 samples.

Results

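The heart libraries of mice given immune checkpoint blockade were compared with those of mice given control IgG. There were 6 heart libraries, 3 per treatment, of the 36 libraries in the study. The heart libraries were chosen by their tissue and treatment labels, and genes were described where FPKM (reads scaled to gene length and to library depth) reached at least 1 in at least 3 of the 6. That rule kept 11476 of 18760 uniquely named genes, and 7284 were below it. The ICB group comprised wild-type C57BL/6 mice that carried tumors of the mouse colon carcinoma line MC38 and that received high-dose antibodies against PD-1 and CTLA-4. The IgG group comprised mice of the same strain with the same tumor that received control IgG, matched for age and sex. Both groups carried tumors, so no heart without a tumor elsewhere in the body was compared. The labels do not state whether each library is a separate animal. The p-values below therefore cover the variation among these 6 libraries, part of which could be technical.

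PD-1 and CTLA-4 are receptors that restrain T cells, and antibodies that block them are used against cancer. Inflammation of the heart muscle is a known harm of such treatment, in which T cells and macrophages enter the tissue and interferon-gamma induces antigen presentation genes. Heart tissue is mostly cardiomyocytes by volume, with a dense capillary endothelium, pericytes, fibroblasts and resident macrophages. Proteins bound for the membrane or for secretion fold in the endoplasmic reticulum (ER), where chaperones such as BiP (Hspa5) and disulfide isomerases assist them. Transcription of the chaperone genes is set by the unfolded protein response, through the sensors ATF6, IRE1 with its target XBP1, and PERK.

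The libraries held 19005189 to 23960764 reads each. Cardiomyocyte markers stood at high levels in each heart library, with Myh6, the cardiac alpha myosin heavy chain, at 5340 to 6350 FPKM and a mean of at most 21.6 FPKM in any other tissue. The atrial light chain Myl7 and sarcolipin (Sln) were at 0 to 0.93 and 0 to 0.125 FPKM, and the fast skeletal myosin Myh4 was at or below 0.0415 FPKM. Not every marker chosen for those tissues was low. Nppa, on the atrial list, was at 51.7 to 110 FPKM, and Acta1, on the skeletal muscle list, at 100 to 311 FPKM. The T cell markers Cd3e, Cd3g and Cd8a were at or below 0.0954 FPKM in each heart library, from 0 to 6 reads.

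Some libraries stood apart. ICB replicate 3 lay at 28.1 on the first principal component, which held 42.5% of the variance, and the other 5 libraries lay between -8 and -2.1. Its mitochondrially encoded genes took 16.6% of reads, against 25.6% and 21.2% in the other ICB libraries and 22.6% to 23.3% in IgG libraries. The same library held 53.6 FPKM of the liver gene Alb, against 1.46 and 3.62 FPKM in the other ICB libraries and 4.9 to 24.5 FPKM in IgG libraries. IgG replicate 1 was high in blood genes. Hemoglobin genes took 0.0341%, 0.0266% and 0.0311% of reads in the ICB libraries, against 0.255%, 0.0524% and 0.0473% in the IgG libraries. The mean hemoglobin share was 0.0306% ± 0.00377 in ICB and 0.118% ± 0.118 in IgG libraries (SD, n = 3 each), and the groups did not overlap. An exact two-sided permutation test of that difference gave p = 0.1, the smallest value that 3 against 3 libraries allow (n = 3 each). The mitochondrial share was 21.1% ± 4.5 in ICB and 23% ± 0.351 in IgG libraries (SD, n = 3 each; exact permutation p = 0.7). The lung secretory gene Scgb1a1 was at 3.15, 0 and 4.75 FPKM in ICB libraries, against 1.07, 24.1 and 5.42 FPKM in IgG libraries, with IgG replicate 2 the highest. List medians below are also given without ICB replicate 3 and IgG replicate 1 where leaving them out turned the direction or moved the value by much. Their part in any result beyond those values was not tested.

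**Figure D1:**
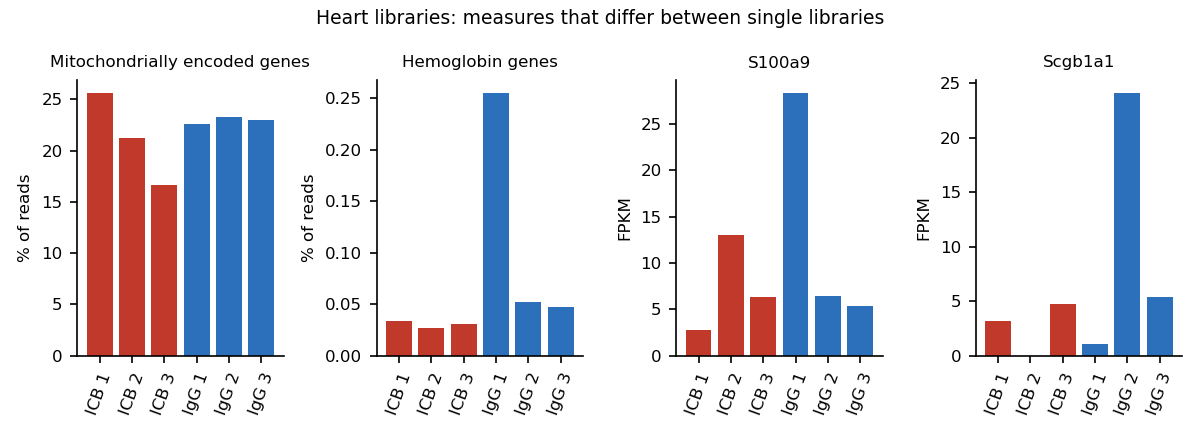
Share of reads from mitochondrially encoded and hemoglobin genes (% of reads) and FPKM of the neutrophil gene S100a9 and the lung gene Scgb1a1, 1 bar per heart library, ICB (red) left of IgG (blue). ICB replicate 3 is lowest in mitochondrial share (16.6%), IgG replicate 1 is highest in hemoglobin (0.255%) and S100a9 (28.3 FPKM), and IgG replicate 2 is highest in Scgb1a1 (24.1 FPKM).

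The first question was which genes differed between ICB and IgG hearts. No gene passed limma's moderated test on log2(FPKM + 1) with Benjamini-Hochberg adjustment at 0.05 (0 of 11476, 0% of genes tested), and the smallest adjusted p was 0.997. Limma-voom on recovered reads also called 0 genes. At an unadjusted limma p under 0.05, 521 genes were counted, of which 235 were higher with ICB (2.05% of genes tested) and 286 lower (2.49%). In 550 genes every ICB library was above every IgG library (4.79%), and in 570 every ICB library was below (4.97%). These 4 percentages are the background against which each count below is set, and they hold over genes of every kind. The lists were chosen with earlier results of these data known, and their members are not independent observations. A list share beside its background is therefore a description and not a test. The median log2 difference over the genes tested was 0.004, in log2(FPKM + 1), ICB minus IgG, a scale that understates the change of genes with low FPKM. Of the 12 genes other than predicted ones with the smallest p-values on the lower side, 5 were ER chaperones or folding enzymes. The type I interferon genes also leaned lower, whereas MHC class II genes leaned higher.

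**Figure D2:**
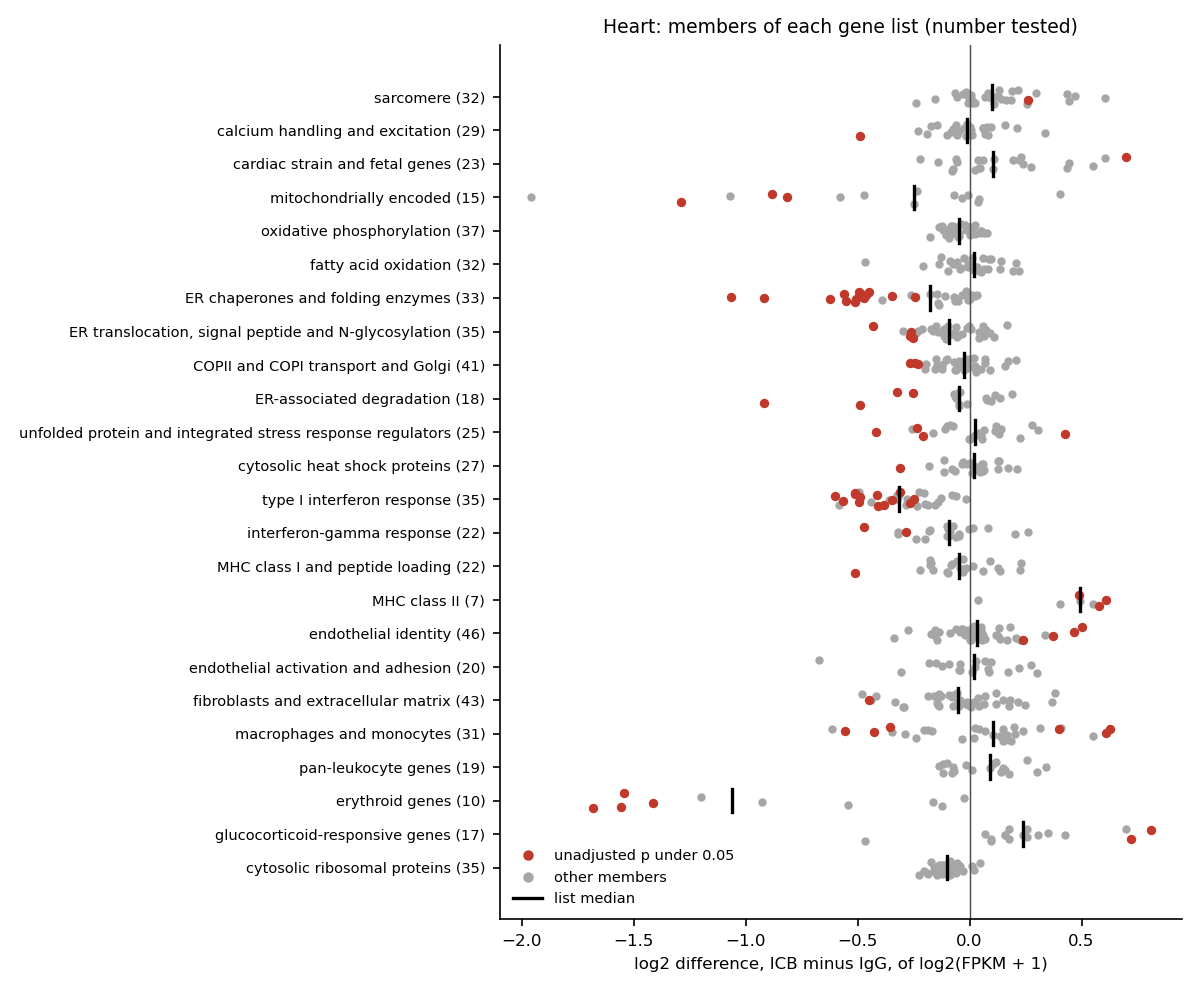
Log2 difference (ICB minus IgG, of log2(FPKM + 1)) of each tested member of 24 gene lists in heart, with unadjusted limma p under 0.05 in red, other members in grey and the list median as a black bar. The ER chaperone, type I interferon and erythroid medians lie at -0.18, -0.32 and -1.06, the MHC class II median at 0.49, and the median of the genes tested at 0.004.

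ER chaperones and folding enzymes were lower in ICB hearts in 30 of 33 tested members, with a median log2 difference of -0.18. Of the 33, 14 were lower at unadjusted p under 0.05 (42.4%, against 2.49% of genes tested) and 0 were higher. This share describes a list chosen with earlier results of these data known. In 13 members every ICB library was below every IgG library (39.4%, against 4.97%). The summed FPKM of the list was 946, 847 and 965 in ICB hearts, against 1200, 1130 and 1240 in IgG hearts, and the groups did not overlap. The median was -0.23 without ICB replicate 3, -0.21 without IgG replicate 1 and -0.18 without both, where 15 members were lower at unadjusted p under 0.05. With each library rescaled to a common FPKM sum the median was -0.08, on which scale the median of the genes tested was 0.088. The common-sum medians of other lists below are likewise to be read against 0.088 and not against 0.

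Among genes other than predicted ones, the smallest p-value belonged to Manf, which encodes a secreted, ER-resident neurotrophic factor made under ER stress (mm10 chromosome 9, 106838312 to 106891979, minus strand). Manf was at 13.6, 9.1 and 15.4 FPKM in ICB hearts, against 29.3, 24.6 and 27.7 FPKM in IgG hearts. Each ICB heart was well below each IgG heart, and the log2 difference was -1.07 ± 0.175 (SE; limma unadjusted p = 0.000317). The annotated Manf exons overlap those of Rbm15b on the same strand and of Dcaf1 on the other, and whether the authors counted by strand was not stated in the labels. Hspa5, the major ER chaperone BiP (chromosome 2, 34771970 to 34777547, plus strand), was at 158, 135 and 171 FPKM in ICB hearts, against 244, 213 and 259 FPKM in IgG hearts. The 2 groups were again separate, with a difference of -0.63 ± 0.124 (SE; unadjusted p = 0.00108). Hsp90b1, the ER member of the HSP90 family known as GRP94, was at 66.4, 49.5 and 71.7 FPKM in ICB hearts, against 86.2, 78.6 and 97.8 FPKM in IgG hearts. Its difference was -0.49 ± 0.152, with no overlap.

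Lectin chaperones and disulfide isomerases assist the folding of glycoproteins. Calr, calreticulin, was at 90.4, 78.7 and 74.2 FPKM in ICB hearts, against 120, 108 and 119 FPKM in IgG hearts, with a difference of -0.51 ± 0.103. Pdia3, the isomerase that works with calreticulin and calnexin, was at 45.8, 39.3 and 44.4 FPKM in ICB hearts, against 62.5, 59.2 and 63.4 FPKM in IgG hearts, with a difference of -0.51 ± 0.09. Both genes were lower in each ICB heart than in any IgG heart. Pdia6 was at 24.7, 21.8 and 23.5 FPKM in ICB hearts, against 30.8, 31.4 and 35.6 FPKM in IgG hearts (difference -0.46 ± 0.093). Pdia4 was at 19.2, 13.6 and 20.2 FPKM in ICB hearts, against 27.1, 23.6 and 27.7 FPKM in IgG hearts (difference -0.55 ± 0.148). Canx, the membrane-bound lectin chaperone calnexin, was at 57.5, 48.5 and 62.2 FPKM in ICB hearts, against 61.5, 66.7 and 73.7 FPKM in IgG hearts, and its groups overlapped, with a difference of -0.26 ± 0.118. Exons of Pdia3 and Pdia6 overlap Catsper2 and Atp6v1c2 on the other strand. Not each abundant isomerase followed: P4hb, which is also a subunit of prolyl 4-hydroxylase, was at 76.8, 89.2 and 96 FPKM in ICB hearts, against 95.1, 89 and 89.1 FPKM in IgG hearts, and the groups overlapped.

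Other members act with BiP or in related folding steps. Dnajb9, a BiP co-chaperone that acts on IRE1 and on misfolded clients, was at 22, 18.5 and 24 FPKM in ICB hearts, against 31.8, 26.7 and 32 FPKM in IgG hearts (difference -0.47 ± 0.119). Creld2, an ER stress-induced disulfide isomerase-like protein, was at 11, 8.46 and 13.3 FPKM in ICB hearts, against 15.5, 15 and 16.3 FPKM in IgG hearts (difference -0.49 ± 0.145). The groups were separate for both genes. Fkbp2, an ER prolyl isomerase, was at 26, 23.9 and 19.8 FPKM in ICB hearts, against 33.5, 29.5 and 32.9 FPKM in IgG hearts (difference -0.45 ± 0.114). In Sdf2l1, a partner of BiP and its co-chaperones, the groups overlapped, since ICB replicate 3 at 13.5 FPKM exceeded IgG replicate 2 at 13 FPKM. Sdf2l1 was at 7.96 and 5.41 FPKM in the other ICB hearts and at 23.8 and 15.3 FPKM in the other IgG hearts, and its difference was -0.92 ± 0.312. Serpinh1, the collagen chaperone HSP47, was at 81.3, 72.5 and 57 FPKM in ICB hearts, against 83, 93.7 and 89.9 FPKM in IgG hearts, just separate. Dnajc3, a further co-chaperone of BiP, was at 14.9, 16.1 and 22.3 FPKM in ICB hearts, against 20.5, 18 and 19.8 FPKM in IgG hearts, and overlapped. So did Dnajc10, a BiP-binding reductase, the oxidase Ero1l and the isomerase Txndc5.

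**Figure D3:**
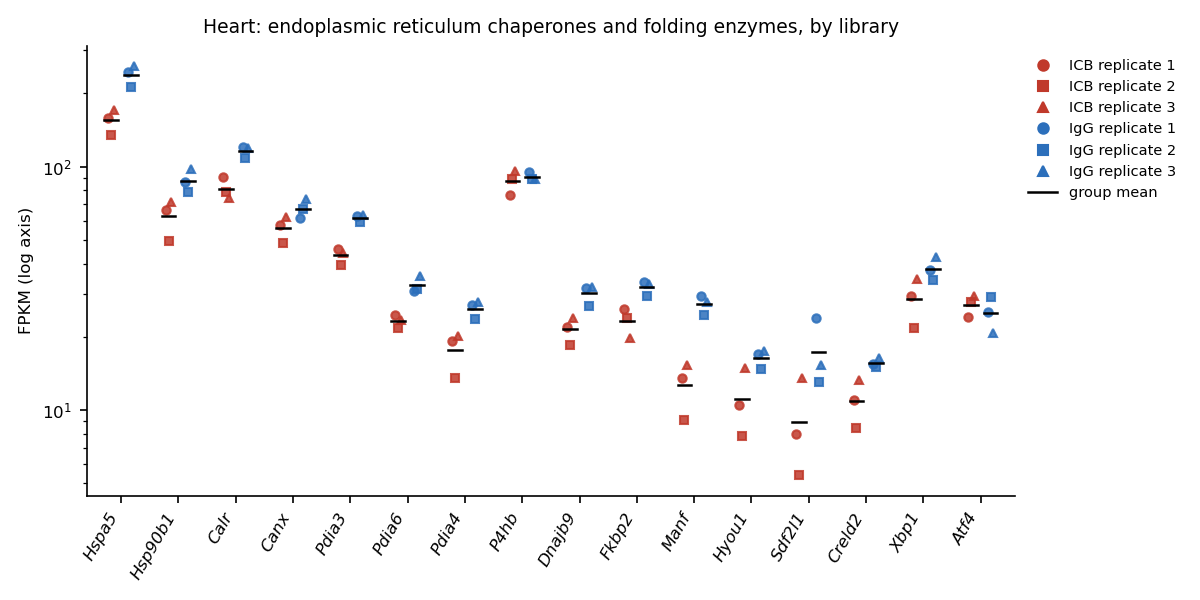
FPKM (log axis) of 14 ER chaperones and folding enzymes and of the regulators Xbp1 and Atf4 in each heart library, ICB (red) left of IgG (blue), with group means as bars. Manf, Hspa5, Calr, Pdia3 and Pdia6 are lower in each ICB library than in any IgG library, and P4hb and Atf4 overlap.

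The promoters of several of these genes hold the ER stress response element, the motif that ATF6 and NF-Y are known to bind, with the letters CCAAT, a gap of any 9 bases, and CCACG. The motif was sought on both strands in the 250 bases upstream of each RefSeq gene start (GRCm38.p6), which were at hand for 8572 of the 11476 tested genes and for 25 of the 33 ER chaperones. It occurred in 12 promoters in all (0.14%), and 7 of these belonged to the ER chaperone list (28% of its 25). Of these 7, Canx and Dnajc3 had overlapping groups and are not shown. The 5 chaperone promoters below are shown because their genes had separate groups and hold the element, in capitals (on the minus strand it reads as its reverse complement). They were thus chosen by outcome. They lie at chr2:34771840-34772089 (plus strand, Hspa5), chr10:86705445-86705694 (minus, Hsp90b1), chr8:84846932-84847181 (minus, Calr), chr12:17266339-17266588 (plus, Pdia6) and chr15:88819396-88819645 (plus, Creld2), each written 5′ to 3′ along its gene.
Hspa5: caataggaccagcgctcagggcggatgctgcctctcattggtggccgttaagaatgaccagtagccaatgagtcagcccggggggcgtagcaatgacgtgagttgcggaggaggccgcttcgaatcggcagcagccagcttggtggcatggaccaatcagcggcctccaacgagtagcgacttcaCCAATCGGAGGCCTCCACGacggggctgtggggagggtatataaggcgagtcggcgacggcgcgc
Hsp90b1: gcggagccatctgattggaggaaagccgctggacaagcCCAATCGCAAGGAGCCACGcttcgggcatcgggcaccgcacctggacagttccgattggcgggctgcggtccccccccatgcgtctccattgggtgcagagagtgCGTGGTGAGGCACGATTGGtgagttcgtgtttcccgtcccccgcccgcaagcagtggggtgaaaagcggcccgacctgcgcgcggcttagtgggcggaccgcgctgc
Calr: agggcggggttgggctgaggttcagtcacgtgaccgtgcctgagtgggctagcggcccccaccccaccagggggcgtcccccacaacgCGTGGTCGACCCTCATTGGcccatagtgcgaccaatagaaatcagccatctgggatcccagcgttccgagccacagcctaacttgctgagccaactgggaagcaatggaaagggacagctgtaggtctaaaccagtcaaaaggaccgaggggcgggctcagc
Pdia6: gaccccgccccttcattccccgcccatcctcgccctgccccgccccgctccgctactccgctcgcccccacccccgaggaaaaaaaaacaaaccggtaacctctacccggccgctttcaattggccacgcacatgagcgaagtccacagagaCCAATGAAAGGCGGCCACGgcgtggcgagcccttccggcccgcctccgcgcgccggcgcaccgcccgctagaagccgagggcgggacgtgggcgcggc
Creld2: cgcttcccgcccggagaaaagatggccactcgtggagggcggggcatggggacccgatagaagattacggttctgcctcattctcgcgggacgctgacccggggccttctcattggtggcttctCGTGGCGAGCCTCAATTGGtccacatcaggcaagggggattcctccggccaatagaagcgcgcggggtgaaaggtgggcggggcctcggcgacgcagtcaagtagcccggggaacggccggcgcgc
In Hspa5 the element ran from 65 to 47 bases before the start, in Hsp90b1 there were 2 copies on opposite strands, and the remaining 3 each had 1 copy. Of the 12 tested genes with the element, 9 were lower in ICB hearts, and the median log2 difference of the 12 was -0.32. Of the 12, 7 were lower at unadjusted p under 0.05 (against 2.49% of genes tested) and with separate groups (against 4.97%). Of the 12, 7 are the chaperones counted above, and the 5 others had a median of 0.03. These 5 were Alg12, Syvn1, Acacb, Pan2 and Hnrnpa3. Alg12, a mannosyltransferase of ER glycan assembly, averaged 3.67 ± 0.58 FPKM in ICB and 4.78 ± 0.351 FPKM in IgG hearts (SD, n = 3 each), and Syvn1, the ER ubiquitin ligase HRD1, averaged 5.92 ± 0.921 FPKM in ICB and 7.62 ± 0.713 FPKM in IgG hearts (SD, n = 3 each). Both had separate groups, and the other 3 did not. The shorter element, ATTGG, any 1 base and CCACG, was found in 6 promoters (0.07%) and in 0 of the 25. A match describes letters in a window and not binding.

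Other steps of the secretory pathway were described in the same way. Of 35 tested genes for ER translocation, signal peptide processing and N-glycosylation, 26 were lower and 9 higher, with a median of -0.09 (0.001 on the common-sum scale). At unadjusted p under 0.05, 4 were lower (11.4%, against 2.49% of genes tested). In 10 every ICB library was below every IgG library (28.6%, against 4.97%). The median was -0.05 without ICB replicate 3, and likewise without both ICB replicate 3 and IgG replicate 1. Magt1, an oxidoreductase of the oligosaccharyltransferase, was at 15.2, 11.4 and 13.9 FPKM in ICB hearts, against 16.9, 17.7 and 21.1 FPKM in IgG hearts (difference -0.43 ± 0.127). Its groups did not overlap, and the same held for Sec11a of the signal peptidase (-0.26 ± 0.081) and Stt3a, the catalytic subunit of the transferase (-0.26 ± 0.09). The 41 genes of COPII and COPI vesicles and the Golgi had a median of -0.02, with 3 lower at unadjusted p under 0.05 (7.32%, against 2.49%). That median was 0.07 on the common-sum scale and -0.05 without ICB replicate 3 and IgG replicate 1. The 18 genes of ER-associated degradation had a median of -0.05, with 4 lower at that level (22.2%, against 2.49%), 2 of them shared with the chaperone list (Hsp90b1 and Sdf2l1). That median was 0.05 on the common-sum scale, where the genes tested had 0.088, and -0.09 without ICB replicate 3 and IgG replicate 1.

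The regulators of the unfolded protein and integrated stress responses did not lean one way by direction: 10 of 25 were lower and 15 higher, with a median of 0.03. At unadjusted p under 0.05, 3 were lower (12%, against 2.49% of genes tested) and 1 higher (4%, against 2.05%). Leaving out ICB replicate 3 alone, 5 were lower at that level. Without ICB replicate 3 and IgG replicate 1, 17 were lower and 8 higher, with a median of -0.03. Xbp1, the transcription factor downstream of IRE1, was at 29.4, 21.8 and 34.7 FPKM in ICB hearts, against 37.8, 34.2 and 42.4 FPKM in IgG hearts. ICB replicate 3 lay just above IgG replicate 2, and the difference was -0.42 ± 0.165. Atf6b was lower in each ICB heart (8.84, 8.67 and 8.53 FPKM, against 10, 11 and 10.2 FPKM in IgG hearts, difference -0.23 ± 0.077). Ppp1r15a, the phosphatase subunit GADD34 induced by the PERK arm, was at 7.11, 7.56 and 9.23 FPKM in ICB hearts, against 5.64, 7.36 and 4.26 FPKM in IgG hearts, overlapping and with a difference of 0.43 ± 0.172. Atf4, the central factor of the integrated stress response, overlapped between groups. The 27 cytosolic heat shock genes had a median of 0.02, and -0.02 without IgG replicate 1, with 1 lower at unadjusted p under 0.05 (3.7%, against 2.49%).

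Type I interferon response genes were lower in ICB hearts in each of the 35 tested members, by a median of -0.32. At unadjusted p under 0.05, 13 were lower (37.1%, against 2.49% of genes tested) and 0 higher, and in 7 every ICB library was below every IgG library (20%, against 4.97%). This list, too, was chosen with earlier results of these data known. The summed FPKM was 240, 335 and 200 in ICB hearts, against 362, 352 and 257 in IgG hearts, so the sums overlapped, with ICB replicate 2 above IgG replicate 3. The median was -0.24 without ICB replicate 3, -0.22 without IgG replicate 1 and -0.14 without both, where 31 members were lower and 3 were lower at unadjusted p under 0.05. On the common-sum scale it was -0.24.

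Ifit1, an interferon-induced protein that binds foreign RNA ends (chromosome 19, 34640871 to 34650009, plus strand), was at 3.73, 4.3 and 2.57 FPKM in ICB hearts, against 6.4, 6 and 5.04 FPKM in IgG hearts. The groups were separate (difference -0.6 ± 0.155, unadjusted p = 0.00491), and it was -0.38 without ICB replicate 3 and IgG replicate 1. Ifit2 was at 5.87, 6.1 and 4.82 FPKM in ICB hearts, against 8.75, 8.9 and 7.18 FPKM in IgG hearts (difference -0.49 ± 0.115). Oas1b, of the oligoadenylate synthetase family, was at 0.783, 0.877 and 1.16 FPKM in ICB hearts, against 1.53, 1.78 and 1.43 FPKM in IgG hearts (difference -0.42 ± 0.112), and reads of this family may be split between near-identical copies. Ifih1, the RNA sensor MDA5, was at 1.88, 2.26 and 1.82 FPKM in ICB hearts, against 2.84, 2.65 and 2.59 FPKM in IgG hearts (difference -0.31 ± 0.095). These 4 genes had separate groups, as did Parp14 (-0.27 ± 0.076) and Ifi203 (-0.41 ± 0.117), whose exons overlap Mndal on the same strand. Isg15, the ubiquitin-like modifier, overlapped: 7.46, 10.1 and 6.19 FPKM in ICB hearts, against 16.7, 11.4 and 7.55 FPKM in IgG hearts. Its difference was -0.5 ± 0.264 and moved to -0.09 without ICB replicate 3 and IgG replicate 1.

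The interferon-stimulated response element core, GAAA, any 2 bases and GAAA on either strand, stood in the same 250-base window of 262 of 8572 tested genes (3.06%) and of 10 of the 24 type I interferon genes with a window (41.7%). The promoters of Ifit1 (chr19:34640639-34640888, plus strand), Ifit3 (chr19:34583279-34583528, plus) and Ifi203 (chr1:173942493-173942742, minus) are shown as examples with the core in capitals. TTTC pairs are its reverse complement.
Ifit1: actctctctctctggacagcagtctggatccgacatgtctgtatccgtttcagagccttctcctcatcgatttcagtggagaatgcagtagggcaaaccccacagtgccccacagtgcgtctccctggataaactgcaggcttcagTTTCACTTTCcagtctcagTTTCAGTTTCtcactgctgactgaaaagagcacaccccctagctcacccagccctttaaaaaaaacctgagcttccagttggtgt
Ifit3: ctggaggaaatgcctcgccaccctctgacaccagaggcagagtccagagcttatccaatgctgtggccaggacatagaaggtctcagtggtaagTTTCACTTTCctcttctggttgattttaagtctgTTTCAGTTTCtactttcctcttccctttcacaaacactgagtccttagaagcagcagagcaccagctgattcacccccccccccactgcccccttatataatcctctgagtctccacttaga
Ifi203: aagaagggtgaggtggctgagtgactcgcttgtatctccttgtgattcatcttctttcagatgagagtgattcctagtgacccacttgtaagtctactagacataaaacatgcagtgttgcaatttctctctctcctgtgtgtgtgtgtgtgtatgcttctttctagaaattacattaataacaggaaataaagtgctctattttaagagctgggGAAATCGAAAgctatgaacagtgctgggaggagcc
Ifit3 was at 7.43, 11 and 6.35 FPKM in ICB hearts, against 12.8, 15 and 9.91 FPKM in IgG hearts (difference -0.57 ± 0.202). ICB replicate 2 lay above IgG replicate 3, and reads may be shared with the near copy Ifit3b.

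Of the 22 tested genes of the interferon-gamma response, 18 were lower and 4 higher, with a median of -0.09 (-0.01 on the common-sum scale). At unadjusted p under 0.05, 2 were lower (9.09%, against 2.49% of genes tested). Leaving out IgG replicate 1 gave a median of -0.04, and leaving out IgG replicate 3 one of -0.2. With both ICB replicate 3 and IgG replicate 1 left out it was -0.008, with 14 lower and 8 higher. Gbp3, a guanylate-binding protein, was at 5.17, 5.47 and 3.71 FPKM in ICB hearts, against 7.74, 7.18 and 5.98 FPKM in IgG hearts (difference -0.47 ± 0.143). Its groups were separate. Gbp2, of the same family, was at 10, 8.36 and 7.8 FPKM in ICB hearts, against 9.68, 9.73 and 7.98 FPKM in IgG hearts, and the groups overlapped. Cd274, the PD-1 ligand PD-L1, was at 3.56, 3.01 and 3.13 FPKM in ICB hearts, against 3.93, 4.18 and 2.62 FPKM in IgG hearts, also overlapping. The chemokine Cxcl9 was below the expression filter, at 0.776, 0.579 and 0.303 FPKM in ICB hearts, against 1.29, 0.769 and 0.473 FPKM in IgG hearts. The 22 MHC class I and peptide-loading genes had a median of -0.05 (0.04 on the common-sum scale, and 0.007 without ICB replicate 3 and IgG replicate 1). At unadjusted p under 0.05, 1 of them, Calr, was lower (4.55%, against 2.49%).

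**Figure D4:**
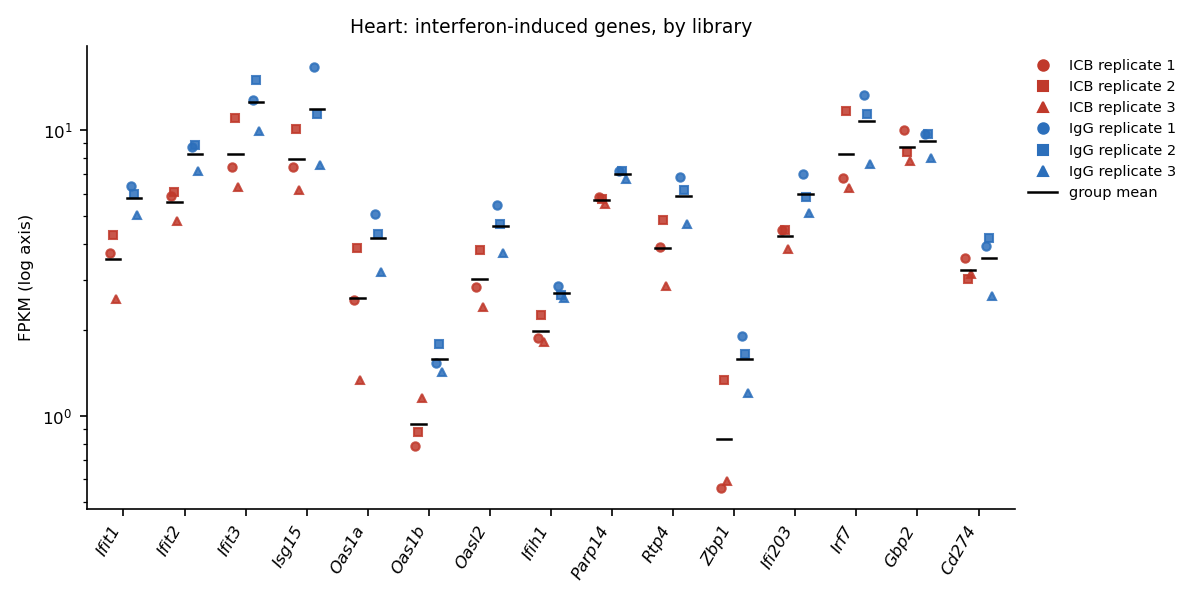
FPKM (log axis) of 15 interferon-induced genes in each heart library, ICB (red) left of IgG (blue), with group means as bars. Ifit1, Ifit2, Oas1b, Ifih1, Parp14 and Ifi203 are lower in each ICB library than in any IgG library, and Isg15, Gbp2 and Cd274 overlap.

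MHC class II genes, which present extracellular antigen to CD4+ T cells, were higher in ICB hearts in each of the 7 members that passed the expression filter (of 12 in the list), with a median of 0.49. At unadjusted p under 0.05, 3 were higher (42.9%, against 2.05% of genes tested), and in 1 every ICB library was above every IgG library (14.3%, against 4.79%). H2-Aa, a class II alpha chain, was at 15.5, 12.3 and 8.41 FPKM in ICB hearts, against 8.17, 7.85 and 8.2 FPKM in IgG hearts (difference 0.49 ± 0.184). Cd74, the invariant chain, was at 63.2, 65.6 and 34.9 FPKM in ICB hearts, against 33.9, 38.2 and 32.7 FPKM in IgG hearts (difference 0.58 ± 0.224). In both genes ICB replicates 1 and 2 were high and ICB replicate 3 lay close to the IgG hearts. The beta chain H2-Eb1 was at 26.9, 23.9 and 12.1 FPKM in ICB hearts, against 12.7, 12.4 and 13.1 FPKM in IgG hearts, so ICB replicate 3 was the lowest of the 6. Its difference was 0.61 ± 0.253, and without ICB replicate 3 it was 0.94, at which it passed the adjusted threshold. The list median was 0.71 without ICB replicate 3, 0.32 without ICB replicate 1 and 0.54 without IgG replicate 1. Ciita, the master regulator of class II transcription, was below the filter at 0.457, 0.333 and 0.594 FPKM in ICB hearts, against 0.301, 0.526 and 0.428 FPKM in IgG hearts.

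Macrophage and monocyte genes were mixed. Of 31 tested, 20 were higher and 11 lower, with a median of 0.1. At unadjusted p under 0.05, 3 were higher (9.68%, against 2.05% of genes tested) and 3 lower (9.68%, against 2.49%). The median was 0.24 without ICB replicate 3 and IgG replicate 1, and -0.06 without ICB replicate 2, which held the highest summed FPKM of the list (454, 710 and 536 in ICB hearts, against 544, 495 and 403 in IgG hearts), and -0.001 without IgG replicate 3. Lyz2, lysozyme of myeloid cells, was at 112, 182 and 150 FPKM in ICB hearts, against 110, 103 and 73.2 FPKM in IgG hearts (difference 0.63 ± 0.209). Mpeg1, a perforin-like macrophage protein, was at 4.89, 7.69 and 8.18 FPKM in ICB hearts, against 5.96, 3.28 and 3.44 FPKM in IgG hearts (0.61 ± 0.229). The Lyz2 groups were just separate, and the Mpeg1 groups overlapped. The 3 members lower at unadjusted p under 0.05 were Timd4, Lyve1 and Pf4. Timd4, a phosphatidylserine receptor of resident macrophages, was at 0.829, 1.06 and 0.99 FPKM in ICB hearts, against 1.77, 1.64 and 1.49 FPKM in IgG hearts (-0.43 for the log2 difference). Lyve1, which also marks lymphatic endothelium, was at 11.4, 16.1 and 12.9 FPKM in ICB hearts, against 19.2, 16.5 and 16.5 FPKM in IgG hearts (-0.36 ± 0.13). Both had separate groups. Pf4, found in macrophages as well as platelets, was at 11.3, 17.2 and 10.2 FPKM in ICB hearts, against 24.5, 19.4 and 14.5 FPKM in IgG hearts, overlapping, with a difference of -0.56 ± 0.225 that was -0.24 without ICB replicate 3 and IgG replicate 1. The complement gene C1qa overlapped, as did the pan-macrophage gene Adgre1, which was at 4.98, 7.58 and 7.24 FPKM in ICB hearts, against 6.18, 5.54 and 5.12 FPKM in IgG hearts. In bulk tissue, fewer cells of a type and less RNA per cell cannot be told apart.

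**Figure D5:**
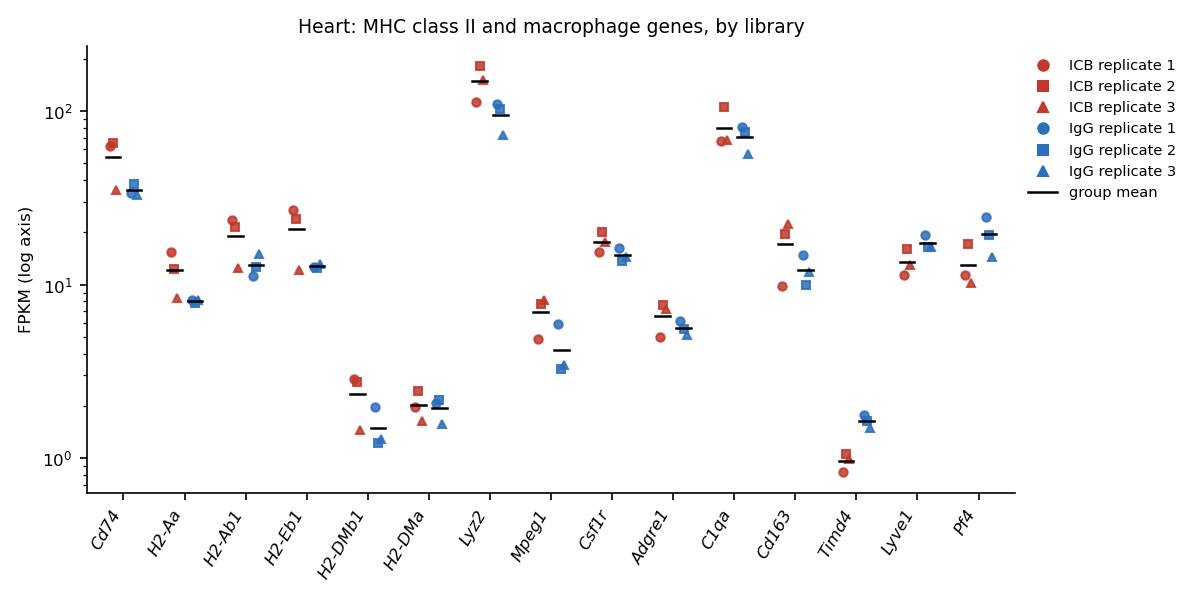
FPKM (log axis) of 6 MHC class II and 9 macrophage genes in each heart library, ICB (red) left of IgG (blue), with group means as bars. ICB replicates 1 and 2 are high and ICB replicate 3 (triangle) lies near IgG for Cd74, H2-Aa and H2-Eb1, and Timd4 and Lyve1 are lower in each ICB library.

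T cell genes were scarcely detected. Of 38 T cell and cytotoxic genes only Thy1, which stromal and neural cells also express, passed the expression filter, and it overlapped between groups. The co-receptor Cd8a was at 0.033, 0 and 0.0592 FPKM in ICB hearts, against 0.0466, 0.0678 and 0.0453 FPKM in IgG hearts, from 0 to 5 reads. Pdcd1, which encodes the antibody target PD-1, was at 0.0622, 0 and 0.0279 FPKM in ICB hearts, against 0, 0.0256 and 0 FPKM in IgG hearts. Ctla4 was at 0.206, 0.241 and 0.508 FPKM in ICB hearts, against 0.218, 0.424 and 0.542 FPKM in IgG hearts. A difference in these transcripts was not detectable at this depth. Vsir, the checkpoint ligand VISTA, was at 12.4, 11.4 and 12.5 FPKM in ICB hearts, against 10.2, 10.7 and 10.7 FPKM in IgG hearts. It was the 1 of 11 tested checkpoint genes at unadjusted p under 0.05, on the higher side (9.09%, against 2.05% of genes tested). Of 24 B and plasma cell genes, 6 passed the expression filter, with a median of -0.05, 2 higher and 4 lower, and 0 at unadjusted p under 0.05. Ighm, the immunoglobulin mu chain, was at 3.53, 4.27 and 2.25 FPKM in ICB hearts, against 5.45, 3.87 and 2.82 FPKM in IgG hearts, overlapping. The leukocyte gene Ptprc (CD45) was at 0.639, 1.15 and 0.825 FPKM in ICB hearts, against 1.12, 0.722 and 0.764 FPKM in IgG hearts, overlapping. The 19 tested pan-leukocyte genes had a median of 0.09, with 0 at unadjusted p under 0.05 in either direction, a median of 0.22 without ICB replicate 3 and IgG replicate 1, and a median of -0.07 without ICB replicate 2 or without IgG replicate 3. Among chemokines, Ccl12 was at 0.671, 1.39 and 1.1 FPKM in ICB hearts, against 3.37, 2.94 and 1.23 FPKM in IgG hearts (difference -0.73 ± 0.256, overlapping), and Cxcl16 was at 3.76, 2.75 and 2.39 FPKM in ICB hearts, against 2.23, 2.14 and 1.85 FPKM in IgG hearts (0.35 ± 0.136, separate).

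Among cardiomyocyte genes, the 32 tested sarcomere genes had a median of 0.1, 24 higher and 8 lower. At unadjusted p under 0.05, 1 was higher (3.12%, against 2.05% of genes tested) and 0 lower. The median was 0.12 without ICB replicate 3 and IgG replicate 1, with 3 members higher at that level, and it was 0.04 without IgG replicate 2 and 0.05 without ICB replicate 2. Myh6 was at 5340, 6100 and 5940 FPKM in ICB hearts, against 5610, 5340 and 6350 FPKM in IgG hearts, and Tnnt2, cardiac troponin T, averaged 979 ± 37.4 FPKM in ICB and 933 ± 41.1 FPKM in IgG hearts (SD, n = 3 each). Both overlapped. Csrp3, the Z-disc muscle LIM protein, was at 458, 488 and 427 FPKM in ICB hearts, against 370, 374 and 400 FPKM in IgG hearts, with separate groups and a difference of 0.26 ± 0.103. Myh7, the beta myosin heavy chain that rises in strained mouse hearts, was at 26.8, 49.9 and 156 FPKM in ICB hearts, against 48.6, 32 and 52.8 FPKM in IgG hearts. Only ICB replicate 3 was high. Actc1, cardiac actin, was at 5090, 7780 and 2620 FPKM in ICB hearts, against 5790, 5270 and 5610 FPKM in IgG hearts, with ICB replicate 3 the lowest.

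Strain and fetal genes had a median of 0.11 over 23 tested, 17 higher and 6 lower. The median was -0.05 without IgG replicate 3 and 0.17 without ICB replicate 3 and IgG replicate 1, where 19 were higher and 6 were higher at unadjusted p under 0.05. With either of these libraries left out alone, 3 were higher at that level. Nppa and Nppb, the natriuretic peptides, overlapped: Nppb was at 379, 586 and 240 FPKM in ICB hearts, against 621, 360 and 210 FPKM in IgG hearts. Ccn2, connective tissue growth factor, was the 1 member higher at unadjusted p under 0.05 with the 6 libraries (4.35%, against 2.05% of genes tested). Ccn2 was at 18.9, 18.6 and 29.8 FPKM in ICB hearts, against 16.9, 10.6 and 12.5 FPKM in IgG hearts (difference 0.7 ± 0.214, and 0.49 without ICB replicate 3). The 29 calcium-handling and excitation genes had a median of -0.01 (0.08 on the common-sum scale, and 0.05 without ICB replicate 3). Gja1 was the 1 of them at unadjusted p under 0.05, on the lower side (3.45%, against 2.49% of genes tested). Gja1, the gap junction protein connexin 43, was at 164, 112 and 105 FPKM in ICB hearts, against 174, 204 and 152 FPKM in IgG hearts. ICB replicate 1 exceeded IgG replicate 3, and the difference was -0.49 ± 0.185. The 37 nuclear genes of oxidative phosphorylation and the 32 of fatty acid oxidation had medians of -0.05 and 0.02, with 0 at unadjusted p under 0.05 in either list by limma. The first of these medians was 0.05 on the common-sum scale and 0.05 without ICB replicate 3, and the second was -0.05 without IgG replicate 1. Of 15 mitochondrially encoded genes, 12 were lower, with a median of -0.25 (0.05 after quantile normalization, and -0.48 without ICB replicate 1). At unadjusted p under 0.05, 3 of them were lower (20%, against 2.49% of genes tested). mt-Nd2, a complex I subunit, was at 12100, 10200 and 6250 FPKM in ICB hearts, against 16200, 16600 and 17800 FPKM in IgG hearts (difference -0.88 ± 0.27, and -0.38 after quantile normalization). Reads of these genes may be shared with nuclear copies.

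Muscle atrophy and proteolysis genes were higher in 15 of 19 tested members and lower in 4, with a median of 0.16. At unadjusted p under 0.05, 1 was higher (5.26%, against 2.05% of genes tested) and 1 lower (5.26%, against 2.49%). In 4 members every ICB library was above every IgG library (21.1%, against 4.79% of genes tested). The median was 0.07 without ICB replicate 3 and 0.05 without ICB replicate 3 and IgG replicate 1. Eif4ebp1, a repressor of cap-dependent translation, was at 38.3, 45.3 and 43.7 FPKM in ICB hearts, against 37.7, 34.1 and 35.1 FPKM in IgG hearts, just separate. Fbxo30, a ubiquitin ligase subunit, was at 5.99, 5.59 and 5.9 FPKM in ICB hearts, against 6.89, 6.82 and 6.72 FPKM in IgG hearts, also separate. The muscle ubiquitin ligases Trim63 and Fbxo32 overlapped. Against the mean of the other organs, described below, the ICB minus IgG difference in heart was higher in 19 of 19 members, with a median of 0.42 for that contrast. Only 1 of the 19 was higher in it at unadjusted p under 0.05 (against 1.12% of genes tested). The contrast also holds the differences of the other organs, and the median within heart was 0.16.

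Endothelial identity genes had a median of 0.03 over 46 tested, 29 higher and 17 lower, with 4 higher and 0 lower at unadjusted p under 0.05 (8.7%, against 2.05%). The median was -0.02 without IgG replicate 3 and 0.06 without ICB replicate 3 and IgG replicate 1. Pecam1 and Cdh5, junctional proteins of the endothelium, overlapped, with Pecam1 at 38.4, 38.9 and 42 FPKM in ICB hearts, against 38.9, 35.7 and 34.1 FPKM in IgG hearts. The 4 higher genes were separate in each case. Car4, the membrane carbonic anhydrase of heart capillaries, was at 13.4, 11.3 and 15.9 FPKM in ICB hearts, against 9.97, 9.26 and 9.16 FPKM in IgG hearts (difference 0.46 ± 0.121). Tcf15, a transcription factor of microvascular endothelium, was at 45.1, 64.6 and 38.1 FPKM in ICB hearts, against 30.6, 36.6 and 34 FPKM in IgG hearts (0.5 ± 0.181). Robo4, an endothelial guidance receptor, and Adgrf5, an adhesion receptor, differed by 0.24 ± 0.089 and 0.37 ± 0.149, and Adgrf5 by 0.19 without ICB replicate 3 and IgG replicate 1. Calcrl, the receptor for adrenomedullin on endothelium, was lower, at 5.93, 6.7 and 7.45 FPKM in ICB hearts, against 11.7, 9.19 and 9.52 FPKM in IgG hearts (difference -0.53 ± 0.117). The 20 activation and adhesion genes had a median of 0.02 with 0 at unadjusted p under 0.05, and a median of -0.05 without ICB replicate 2 or without IgG replicate 3. Of 21 tested genes of arterial, venous, endocardial and lymphatic endothelium, 14 were lower and 7 higher, with a median of -0.09. At unadjusted p under 0.05, 1 of these was lower (4.76%, against 2.49% of genes tested) and 0 were higher. Their median was -0.02 without IgG replicate 1 and -0.03 without ICB replicate 3 and IgG replicate 1. The 43 fibroblast and matrix genes had a median of -0.05, which was 0.04 on the common-sum scale and 0.1 without ICB replicate 3. At unadjusted p under 0.05, 1 was lower, the matrix protein Comp (-0.45 ± 0.169). That share is near the one of all genes tested (2.33%, against 2.49%).

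Erythroid genes were lower in each of the 10 tested members, with a median of -1.06. Of these, 4 were lower at unadjusted p under 0.05 (40%, against 2.49% of genes tested) and 6 had separate groups (60%, against 4.97%). Hba-a1 was at 222, 152 and 182 FPKM in ICB hearts, against 1590, 326 and 306 FPKM in IgG hearts, with a difference of -1.56 ± 0.574, and reads may be split between the near-identical alpha globin copies. IgG replicate 1 was far above the rest, and the other IgG hearts were still above each ICB heart. The list median was -0.39 without IgG replicate 1 and -0.58 without that library and ICB replicate 3. Genes that respond to glucocorticoids leaned higher, 16 of 17, with a median of 0.24 that was 0.06 without ICB replicate 3. Zbtb16, a glucocorticoid-induced transcription factor, was at 22.1, 39.8 and 31.4 FPKM in ICB hearts, against 26.1, 13.3 and 13.6 FPKM in IgG hearts (difference 0.81 ± 0.285, overlapping). The 35 cytosolic ribosomal protein genes had a median of -0.1, with 32 lower, and -0.001 on the common-sum scale. Without ICB replicate 3 their median was -0.003, with 18 lower and 17 higher, and it was 0.05 without ICB replicate 3 and IgG replicate 1.

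Outside the lists above, genes with small p-values on the higher side were of varied function. Ninj1, a membrane protein that acts in plasma membrane rupture, was at 56.9, 66.8 and 69.3 FPKM in ICB hearts, against 47.8, 46.4 and 45.6 FPKM in IgG hearts (difference 0.45 ± 0.097). Dhrs3, a retinal reductase, was at 27.9, 27.5 and 27.9 FPKM in ICB hearts, against 22, 22.8 and 21.4 FPKM in IgG hearts (0.32 ± 0.074). These groups were separate, as they were for Cdkl1 (0.44), the adiponectin paralog C1qtnf9 (0.38), the GATA6 co-regulator Lmcd1 (0.36), Nabp1 (0.29) and Trp53bp2 (0.3). Lgals2, a galectin, was at 1.22, 1.69 and 1 FPKM in ICB hearts, against 0.575, 0.167 and 0.372 FPKM in IgG hearts (0.75 ± 0.156), and its exons overlap Cdc42ep1 on the other strand. Lgals2 met the expression filter only through the ICB libraries. Its presence among the genes tested, and so its separation, depends in part on that filter. On the lower side, Lypla1, an acyl-protein thioesterase, was at 2.82, 2.62 and 2.46 FPKM in ICB hearts, against 4.35, 3.94 and 4.56 FPKM in IgG hearts (-0.54 ± 0.089). The groups were separate for Lypla1 and likewise for Igfbp5, a binding protein of insulin-like growth factors (-0.48 ± 0.101), and the endocytic adaptor Dab2 (-0.49 ± 0.112). The mitochondrial proline transfer RNA gene mt-Tp was at 695, 435 and 216 FPKM in ICB hearts, against 2170, 1850 and 1410 FPKM in IgG hearts (-2.14 ± 0.387), values per kilobase of a very short gene.

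The second question was whether the difference in heart departed from that in other organs of the study. The ICB minus IgG difference in heart was set against the mean of the same difference in kidney, lung, liver and skeletal muscle, over 30 libraries. One difference passed limma's test with adjustment over the 11476 genes (1 gene, 0.00871% of genes tested). At unadjusted p under 0.05, 129 genes had a higher ICB minus IgG difference in heart than in those organs (1.12%) and 165 a lower one (1.44%), and the median over the genes tested was 0.009. The gene that passed was Gm40457, a predicted gene on chromosome 7 (128487945 to 128500187). Gm40457 was at 2.2, 1.65 and 2.66 FPKM in ICB hearts, against 1.01, 1.14 and 0.701 FPKM in IgG hearts. The difference in heart exceeded the mean of the other organs by 0.69 (limma adjusted p = 0.00377), and each ICB heart was above each IgG heart. It did not pass with a pseudocount of 0.1, on the common-sum scale, or with kidney or liver left out. The next smallest p-value was that of Plscr5, a phospholipid scramblase family member, with -0.59 (unadjusted p = 1.82e-05), at 1.21, 2.1 and 1.63 FPKM in ICB hearts, against 2.94, 2.69 and 3.18 FPKM in IgG hearts. Gnb3, a G protein beta subunit, and Cabp1, a calcium-binding protein, had differences 0.41 and 0.43 above those of the other organs.

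For the ER chaperones, the ICB minus IgG difference was lower in heart than the mean of the other organs in 28 of 33 members, with a median of -0.08 and 3 at unadjusted p under 0.05 (9.09%, against 1.44%). These 3 were Manf (-0.96, unadjusted p = 0.00156), Pdia3 (-0.41, unadjusted p = 0.0195) and Sdf2l1 (-0.78, unadjusted p = 0.0355), and 0 of the 33 passed limma's test after adjustment. For the type I interferon genes the median was -0.44, with 35 of 35 lower and 0 at unadjusted p under 0.05. Leukocyte genes had lower ICB minus IgG differences in heart than the mean of the other organs. Within heart their list medians were above 0 (0.09 for pan-leukocyte and 0.1 for macrophage genes). In the organ contrast the pan-leukocyte list had a median of -0.57, with 19 of 19 lower and 3 at unadjusted p under 0.05 (15.8%, against 1.44%). The macrophage list had a median of -0.54, with 29 of 31 lower and 4 at that level (12.9%). For MHC class II the median was -0.31, with 7 of 7 lower and 0 at that level, although each of these genes was higher with ICB within heart.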

How the data were processed

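Bulk RNA-seq of flash-frozen tissue was deposited as 1 table of FPKM values for 36 libraries. Per the submitters' processing notes, HISAT2 2.1.0, the mm10 build and edgeR were used; for the counter, annotation version and strandedness the sources used here give nothing. The deposited FPKM values came out as whole multiples of 1 read in 18781 of 18781 rows (tolerance 0.001 reads), which gave 19005189 to 25512980 reads per library. From these values, 15 rows with no gene name and 3 duplicated symbols were left out, log2(FPKM + 1) was taken for genes that reached FPKM 1 in 3 or more heart libraries, and limma 3.58.1 (R 4.3.3, moderated test with a trend) compared ICB with IgG, adjusted over 11476 genes. The test was also run on simulated counts that held no library set apart from the rest, and no result here rests on that run. The organ comparison used 30 libraries and the same filter. Limma-voom was run on the recovered reads.

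Lists (48, with 1177 genes, of which 1153 were in the table and 872 tested) and members were chosen with earlier results of these data known. Named genes were the 12 smallest p-values each way other than predicted genes, up to 6 members of each list by smallest p, and a set of common markers. Fkbp2, Pdia4, Creld2, Hsp90b1, Serpinh1, Ifit3, Isg15, Alg12, Syvn1, the promoters and any other gene outside that rule were chosen after their values were seen. Coordinates are those of GENCODE M21 on mm10, and promoters those of RefSeq on GRCm38.p6. List members without a value in the table were not analysed here. Some genes that the naming rule picks are not reported here.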

Additional observations from a re-analysis of the deposited data

Results flagged for a closer look

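Gm40457, a predicted gene, differed between heart and the mean of kidney, lung, liver and skeletal muscle in its ICB minus IgG difference by 0.69 (log2 of FPKM + 1, limma adjusted p = 0.00377). It stood at 2.2, 1.65 and 2.66 FPKM in ICB hearts, against 1.01, 1.14 and 0.701 FPKM in IgG hearts, and its higher level was seen in 3 of 3 ICB hearts.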

How the results depend on the processing

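No gene passed the heart comparison in 15 of 17 settings. The count was 3 (BC037032, Gm40457 and Plscr5) in 1 fit of all 36 libraries, and 0 to 2 when a replicate was left out, with 2 (H2-Eb1 and mt-Tl2) without ICB replicate 3. In the organ comparison, where 1 gene passed, the count was 0 with a pseudocount of 0.1, 0 on the common-sum (TPM) scale, 2 with no filter on low values, 5 with array weights, 0 with kidney left out and 0 with liver left out. Leaving out 1 replicate gave 1 to 4 genes, with 2 without heart IgG replicate 2, 4 without heart ICB replicate 1 and 3 without heart ICB replicate 2. The cause of these shifts was not tested. Of the gene differences given, 1187 values over the alternatives kept direction and side of the threshold, 3 moved past it and 0 changed sign. Many of these genes were named for small p-values or after their values were seen, and no gene passed in the main test. Keeping direction and side was thus largely fixed by that choice, and the count is no measure of robustness. Of the list medians, 37 values moved by more than the spread between libraries and 443 did not. That spread was the SD of the list mean between libraries of a group, which a deviating library itself widens. A median that changed sign within it counts among the 443. The fibroblast and matrix median, for example, went from -0.05 to 0.1 without ICB replicate 3.

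No paired analysis was possible because the heart groups share no number in their titles. In the organ comparison, where titles do share numbers, the replicate block gave 1 gene, with a correlation of 0.169 between samples of the same number. EdgeR and DESeq2 on the recovered reads were not run. With 3 libraries per group, small differences were not detectable, and low-abundance lymphocyte genes rested on a few reads. ICB replicate 3 stood apart on the first principal component, and IgG replicate 1 in blood genes.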
